A study of Capra hircus with 24 samples.

Results

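The 4 acute phase protein genes described here are SAA3 (serum amyloid A3, cattle transcript NM_181016), HP (haptoglobin, NM_001040470), LBP (lipopolysaccharide binding protein, NM_001038674) and ORM1 (orosomucoid 1, also called alpha-1-acid glycoprotein, NM_001040502). Every non-control probe that the array annotates with 1 of these 4 transcripts was taken, which gave 4 of 26748 transcripts and 14 of 43653 probes: 4 for SAA3, 3 for HP, 5 for LBP and 2 for ORM1. Given these genes, the choice of probes used the annotation alone and no measured value. RNA came from healthy female dairy goats in 3rd lactation, 4 Polish White Improved goats (PWI) and 4 Polish Fawn Improved goats (PFI), with no treatment given in the labels. Each goat contributed milk somatic cells (MSC, leukocytes and epithelial cells found in milk), peripheral nuclear blood cells (PNCB) and milk fat globules (MFG, secreted lipid droplets that carry cytoplasm of the mammary epithelial cell), so 6 groups of source and breed held 4 arrays each. On each of the 24 arrays the sample was labelled with Cy5, and Cy3 carried a common reference pooled from blood nuclear cell RNA of 7 goats in 4th lactation (4 PWI and 3 PFI), taken once lactation had ended.

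Acute phase proteins are plasma proteins whose concentration changes during infection or tissue injury. The liver makes most of them in response to cytokines such as interleukin 6 and interleukin 1, but several are also made outside the liver. SAA3 is the serum amyloid A form made by mammary epithelium in ruminants and is found in colostrum and in milk during mastitis. LBP carries bacterial lipopolysaccharide to CD14, from where it reaches the Toll-like receptor TLR4. Haptoglobin binds free haemoglobin and is stored in granules of neutrophils, and ORM1 is a glycosylated lipocalin that binds drugs and modulates immune cells.

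Several features of the design bear on every comparison. Milk RNA and blood RNA were extracted with different kits, so the kit and the source of RNA cannot be told apart in comparisons with PNCB. Each group lay on a slide of its own and the MFG arrays were scanned on another day, so neither slide and breed of one source nor scan day and MFG can be told apart. The array carries cattle probes and was hybridised with goat RNA, and serum amyloid A genes are near-identical copies whose signals these probes may mix. In such bulk RNA, fewer cells of a type and less RNA per cell cannot be told apart. PWI goats 2 and 4 had MFG arrays with 84.6% and 75.3% of probes well above background in Cy5, against 44.1% to 51.5% on the other MFG arrays. The spike-in controls gave a low slope (0.489 to 0.645) on the MFG array of PWI goat 2 and on the PNCB arrays of PWI goats 3 and 4. Source labels were not checked against marker genes, because 0 of 26748 transcript accessions matched the gene table used here. Probe sequences were not used here.

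SAA3 gave the brightest signals of the 4 genes, and it was far brighter in both milk sources than in blood. Signals are given first as net intensity, the spot minus its local background, in scanner units without scaling between arrays. For probe A_73_P060826 the net Cy5 intensity in PNCB had a lowest value of 457, a median of 733 and a highest value of 1181 (n = 8). In MSC the same probe read 75288 at the lowest, 100014 at the median and 141206 at the highest, and in MFG 107891, 135622 and 229522. The dimmest milk array was thus far above the brightest blood array, while the ranges of MSC and MFG overlapped. Probe A_73_110703 read 261 to 771 in PNCB, 49169 to 147234 in MSC and 66302 to 191242 in MFG. Probes A_73_P060831 and A_73_P060851, which were dimmer, read 97.0 to 362 in PNCB and 21167 to 114023 on the milk arrays. For each of the 4 probes the MSC signal exceeded the PNCB signal in 8 of 8 goats, and so did the MFG signal. The ratio of the source medians lay between 136 and 220 for MSC over PNCB and between 185 and 271 for MFG over PNCB. Over all probes the median net Cy5 signal of an array was 18.5 to 35 in MSC, 28 to 58 in PNCB and 13.5 to 322 in MFG.

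**Figure D1:**
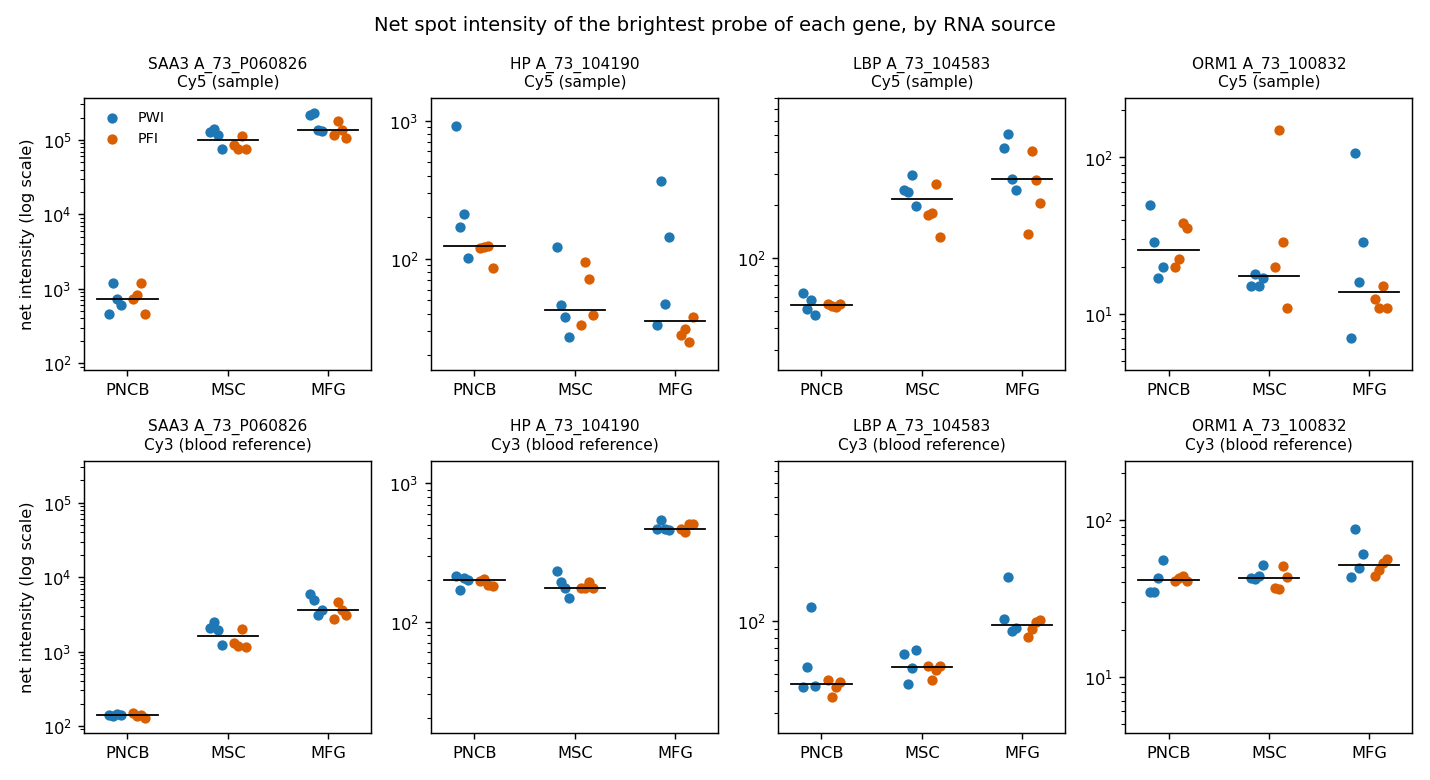
Net intensity (log axis) of the brightest probe of each gene in the sample channel (Cy5, top) and the blood reference channel (Cy3, bottom), by source on the x axis; points are arrays, colours are breeds and black lines are medians of 8 arrays. SAA3 Cy5 rises from a median of 733 in PNCB to 100014 in MSC, and its Cy3 signal, which held the same reference RNA on every array, rises from 140 to 1627.

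The reference channel of the SAA3 spots moved with the source as well. All arrays carried the same reference RNA, yet the net Cy3 intensity of A_73_P060826 was 129 to 148 on PNCB arrays, 1148 to 2512 on MSC arrays and 2713 to 5933 on MFG arrays. The other 3 SAA3 probes likewise had Cy3 ranges that did not overlap between PNCB and milk arrays. How many of all probes had such Cy3 ranges was not counted. On the milk arrays Cy3 stood at 0.773% to 3.35% of Cy5 for the 4 probes, and on PNCB arrays at 11.1% to 69.3%. In a limma fit of Cy3 alone, A_73_110703 was higher by 2.93 (log2) on MSC arrays than on PNCB arrays, while the median over all probes was 0.01. The 4 probes lay between the 99.94 and 99.96 percentiles of that fit. Of the 27411 probes entered, 612 passed the limma threshold in Cy3 between MSC and PNCB. Between MFG and PNCB 10436 passed, and between MFG and MSC 10825. The reference channel thus differed on MFG arrays at many other probes too, which bears on every MFG ratio given here. What part of the ratios these Cy3 differences take was not tested, and the ratio and both channels are therefore given side by side.

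In the normalised log2 ratios of sample over reference, which the tests used, SAA3 was higher in MSC than in PNCB for 4 of 4 probes. For A_73_110703 the log2 ratio averaged 4.81 ± 0.32 over MSC and 0.62 ± 0.51 over PNCB arrays (SD, n = 8 each), with no overlap. The difference was 4.19 (SE 0.20, limma adjusted p = 2.56e-12), or 18.2-fold. The differences of the other 3 probes were 3.64, 3.71 and 4.02, with limma adjusted p-values of at most 6.31e-07. With Cy5 alone, quantile normalised and with spots flagged only for their background kept, the 4 differences were 7.79 to 8.14, so the ratio gave a smaller difference than the sample channel did. MFG also exceeded PNCB, by 5.59 for A_73_110703 (SE 0.27, limma adjusted p = 1.36e-12), 4.16 for A_73_P060831 and 4.57 for A_73_P060851.

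These values rest on incomplete sets of spots. Of the 96 SAA3 spots, 25 had an outlier flag and stayed out of the tests, 24 of them on milk arrays, and 0 of the flags concerned the spot itself rather than its local background. Probe A_73_110703 kept 4 of 8 MFG values, 3 of PWI and 1 of PFI. As both breeds weigh equally, its MFG differences rest heavily on that 1 PFI array. For A_73_P060826, 3 MSC values and 1 MFG value remained, so its MFG differences could not be estimated. With the background-flagged spots kept, the mean log2 ratio of A_73_P060826 was 0.65 ± 0.50 for PNCB, 3.96 ± 0.28 for MSC and 4.35 ± 0.33 for MFG (SD, n = 8 each).

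Whether SAA3 differed between both milk sources depended on the channel read. By the ratio, MFG exceeded MSC by 1.40 for A_73_110703 (SE 0.27, limma adjusted p = 0.000422) and by 0.54 for A_73_P060851 (SE 0.16, limma adjusted p = 0.0121), while the 0.45 of A_73_P060831 did not pass (limma adjusted p = 0.053). With each goat as a block, A_73_P060831 passed with 0.52 (limma adjusted p = 0.0103) and A_73_P060851 did not with 0.35 (limma adjusted p = 0.0868). The Cy3 signal of A_73_110703 was lower on MFG than on MSC arrays by a log2 difference of -0.71 (limma adjusted p = 0.0268). In Cy5 alone with background-flagged spots kept, the 4 SAA3 probes differed between MFG and MSC by -0.16 to 0.16, and 0 passed. Net Cy5 of A_73_110703 was higher in MFG in 5 of 8 goats and lower in 3, and that of A_73_P060826 was higher in 8 of 8. With median centring in place of loess, A_73_P060831 and A_73_P060851 fell in MFG, by -0.66 and -0.61 (limma adjusted p = 0.011 and 0.00741), where all probes had a median of -0.61.

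Within blood, SAA3 was detected on every array but varied between goats. The net Cy5 intensity of A_73_P060826 was 462, 1181, 736 and 607 in PWI goats 1 to 4 and 731, 828, 1180 and 457 in PFI goats 1 to 4. PWI goat 1 and PFI goat 4 were the dimmest by each of the 4 probes. Their log2 ratios ranged from -0.03 to 0.17, near the level of the blood reference pool.

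LBP was also higher in milk, with smaller differences and weaker signals than SAA3. Net Cy5 of its brightest probe, A_73_104583, was 47.5 to 63.5 in PNCB with a median of 54.0, 131 to 297 in MSC with a median of 217, and 136 to 504 in MFG with a median of 279 (n = 8 each). PNCB lay below both milk sources with no overlap, and both milk sources overlapped. The mean log2 ratio of this probe was 0.20 ± 0.31 for PNCB, 1.27 ± 0.21 for MSC and 1.91 ± 0.69 for MFG (SD, n = 8 each). It was 2.09-fold higher in MSC than in PNCB (log2 difference 1.06, SE 0.22, limma adjusted p = 0.000295) and 3.25-fold higher in MFG, a log2 difference of 1.70 (SE 0.22, limma adjusted p = 4.32e-07). It was higher in 8 of 8 goats in each of these comparisons. The Cy3 signal of A_73_104583 was also higher on MFG than on PNCB arrays, by 0.37 (log2, limma adjusted p = 0.00112). Its Cy3 difference between MSC and PNCB arrays, 0.22, did not pass (limma adjusted p = 0.24). What part of the LBP ratio these Cy3 differences take was not tested.

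The other LBP probes read near the floor in blood. Net Cy5 of A_73_P110026 was -1.0 to 10.5 in PNCB, where it was not well above background on any array, 38.0 to 87.0 in MSC and 55.5 to 184 in MFG. By the ratio it was higher by 0.77 in MSC and 1.70 in MFG (log2, SE 0.17 each, limma adjusted p = 0.000788 and 1.90e-08), or 1.71-fold and 3.24-fold. In the Cy5 signal after loess and Aquantile scaling, which use both channels, its mean MSC signal was 1.99-fold and its mean MFG signal 2.80-fold that of PNCB. The dim source was to stand at its own signal or at the lowest detected signal of the array, whichever is higher. For this probe PNCB stood at its own signal (mean log2 of 5.96), so both folds are ratios of mean signals and not lower bounds. They hold on this Cy5 scale, with the offset of the background correction included, and are no bound for the fold of the ratio. They are also open to dye bias because no dye swap was made. Probe A_73_P255221, well above background on 1 of 8 PNCB arrays, gave log2 differences of 1.03 in MSC and 1.80 in MFG (SE 0.33 each, limma adjusted p = 0.012 and 5.94e-05). Its PNCB readings held a Cy3 intensity of 13424 in PWI goat 4, which was flagged and left out, and 273 in PFI goat 2, which was not flagged and gave a ratio of -2.55. On the other 6 PNCB arrays Cy3 was 25 to 67.0. Without PFI goat 2 its differences were 0.72 and 1.40 (limma adjusted p = 0.0164 and 4.08e-05). Its MSC call was lost in 5 of 26 settings (limma adjusted p = 0.0503 to 0.176), namely without PWI goat 3 (0.97), within PWI goats (0.68) and in the 3 settings that change how flagged spots are handled (0.60 to 1.51). Probe A_73_P404941 passed in MFG with a log2 difference of 0.41 (SE 0.10, limma adjusted p = 0.000724), or 1.33-fold, but not in MSC (0.19, SE 0.10, limma adjusted p = 0.111). Its MFG call was lost in 4 of 26 settings (limma adjusted p = 0.0711 to 0.155), namely the 3 that change how flagged spots are handled and within PWI goats. The fifth probe, A_73_P314201, was too dim to be tested, with net Cy5 of 2.0 to 7.0 in PNCB, 6.0 to 28.5 in MSC and 8.0 to 126 in MFG. Of the 4 tested LBP probes, 3 (A_73_P110026, A_73_P255221 and A_73_P404941) entered the test only through their milk signal.

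Between both milk sources, 2 of the 4 tested LBP probes were called, beside 34.8% of all probes. Probes A_73_104583 and A_73_P110026 were higher in MFG by 0.64 (SE 0.22, limma adjusted p = 0.0249) and 0.93 (SE 0.17, limma adjusted p = 0.000142). The 0.76 of A_73_P255221 and the 0.22 of A_73_P404941 did not pass (limma adjusted p = 0.0652 and 0.0944). In net Cy5, A_73_104583 was higher in MFG in 6 of 8 goats and A_73_P110026 in 7 of 8. The call for A_73_104583 was lost on leaving out any of 4 goats (limma adjusted p = 0.0543 to 0.129). It was also lost with median centring, where its difference was -0.16 and the median of all probes -0.61. With the scanner's processed signals it was lost too, with a difference of -0.13 and a median of all probes of -0.21. On the MFG array of PWI goat 2, one of those that stand apart, this probe had its lowest MFG ratio, 0.59, although its net Cy5 of 504 was the highest. Without both MFG arrays that stand apart, A_73_104583 differed by 1.0 (limma adjusted p = 5.55e-05) and A_73_P255221 by 1.10 (limma adjusted p = 0.0112).

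**Figure D2:**
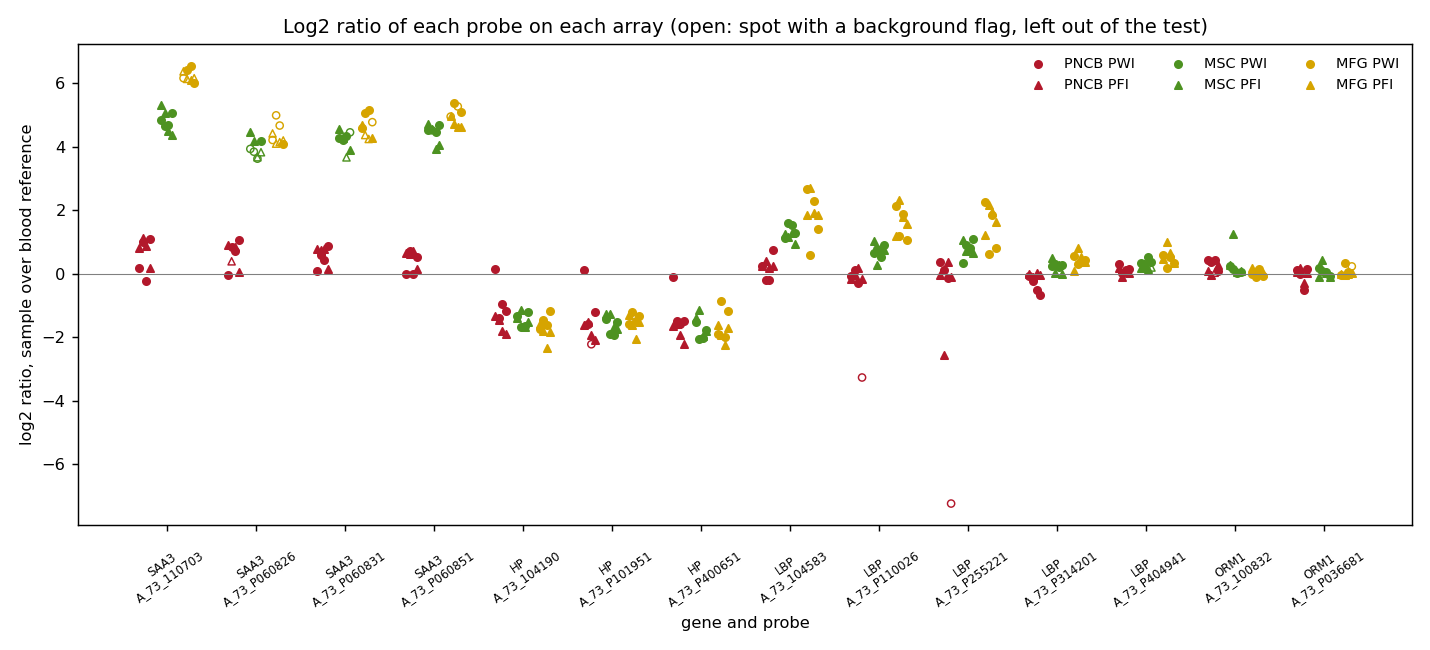
Normalised log2 ratio of sample over blood reference for each of the 14 probes (x axis) on each array; colours are sources, circles PWI and triangles PFI, and open symbols are spots with a background flag that the tests left out. SAA3 separates milk from blood for every probe, and the HP and ORM1 ranges overlap between sources. LBP ratios are higher in milk on average, but several LBP probes overlap with blood. Among these is the brightest, A_73_104583, in MFG (lowest 0.59, against a highest PNCB value of 0.74). The lowest point, -7.25, is the flagged PNCB spot of LBP probe A_73_P255221.

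No HP probe was called higher in milk, and HP read highest in the blood of 1 goat. Net Cy5 of A_73_104190 in PNCB was 914, 171, 211 and 101 in PWI goats 1 to 4 and 119, 122, 124 and 86.0 in PFI goats 1 to 4. In MSC the values were 123, 46.0, 38.0 and 27.0 in PWI goats and 33.0, 95, 72.0 and 39.0 in PFI goats, in the same order. In MFG they were 33.0, 366, 47.0 and 144 in PWI goats and 28.0, 31.0, 25 and 38.0 in PFI goats. PWI goat 1 stood far above the others in blood, and in MFG the 2 high values were those of the arrays with high signal throughout. For each of the 3 HP probes net Cy5 was lower in MSC than in PNCB in 8 of 8 goats. Net Cy5 was lower in MFG in 6, 7 and 6 of 8 goats. These intensities are unscaled, and the median over all probes was also lower on the MSC than on the PNCB array of each goat (18.5 to 35 against 28 to 58). With Cy5 alone, quantile normalised and with background-flagged spots kept, the HP probes were lower in MSC in 6, 8 and 7 of 8 goats.

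By the normalised ratio this difference was small. The mean log2 ratio of A_73_104190 was -1.24 ± 0.64 for PNCB, -1.46 ± 0.21 for MSC and -1.70 ± 0.34 for MFG (SD, n = 8 each), so each source lay below the blood reference pool. HP did not pass in MSC against PNCB, with differences of -0.22, -0.25 and -0.21 (SE 0.17 to 0.21, limma adjusted p = 0.291 to 0.420). In MFG against PNCB, A_73_104190 fell by 0.46 (SE 0.17, limma adjusted p = 0.0244), while the -0.17 of each of the other 2 probes did not pass (limma adjusted p = 0.456 and 0.474). The call for A_73_104190 was lost with slide as a random block (limma adjusted p = 0.0549) and on leaving out any of 4 goats, among them PWI goat 1 (-0.26, limma adjusted p = 0.122). The Cy3 signal of A_73_104190 was 444 to 545 on MFG arrays and 168 to 215 on PNCB arrays, with a difference of 0.57 after normalisation (log2, limma adjusted p = 3.04e-07). In that Cy3 fit 10436 probes passed, and A_73_104190 lay at the 96.71 percentile. What part of the HP ratio the Cy3 difference takes was not tested.

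The HP calls depended on the scaling. With the scanner's processed signals, where all probes had medians of -0.18 in MSC and -0.60 in MFG, the 3 HP probes fell in both milk sources. They fell by 0.80 to 1.51 in MSC and 0.80 to 1.56 in MFG, and all 6 differences passed (limma adjusted p of 0.0102 to 0.0289). With median centring the differences were -0.71 to -0.65 in MSC and -1.76 to -1.43 in MFG, all past the threshold, where all probes had medians of -0.17 and -0.82. With Cy5 alone, A_73_P101951 and A_73_P400651 fell in MSC, by 0.61 and 0.58, and A_73_104190 did not pass with -0.42 (limma adjusted p = 0.101). Within PFI goats the MSC difference was 0.18 to 0.30 and within PWI goats -0.80 to -0.62, and none of these 6 values passed. The interaction of breed and source did not pass for any HP probe (limma adjusted p = 0.772 each). Unscaled net Cy5 was lower in MSC in every goat of both breeds, but so was the median over all probes, as given above. HP did not pass between MFG and MSC, with differences of -0.25, 0.08 and 0.03 (limma adjusted p = 0.301 to 0.923).

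**Figure D3:**
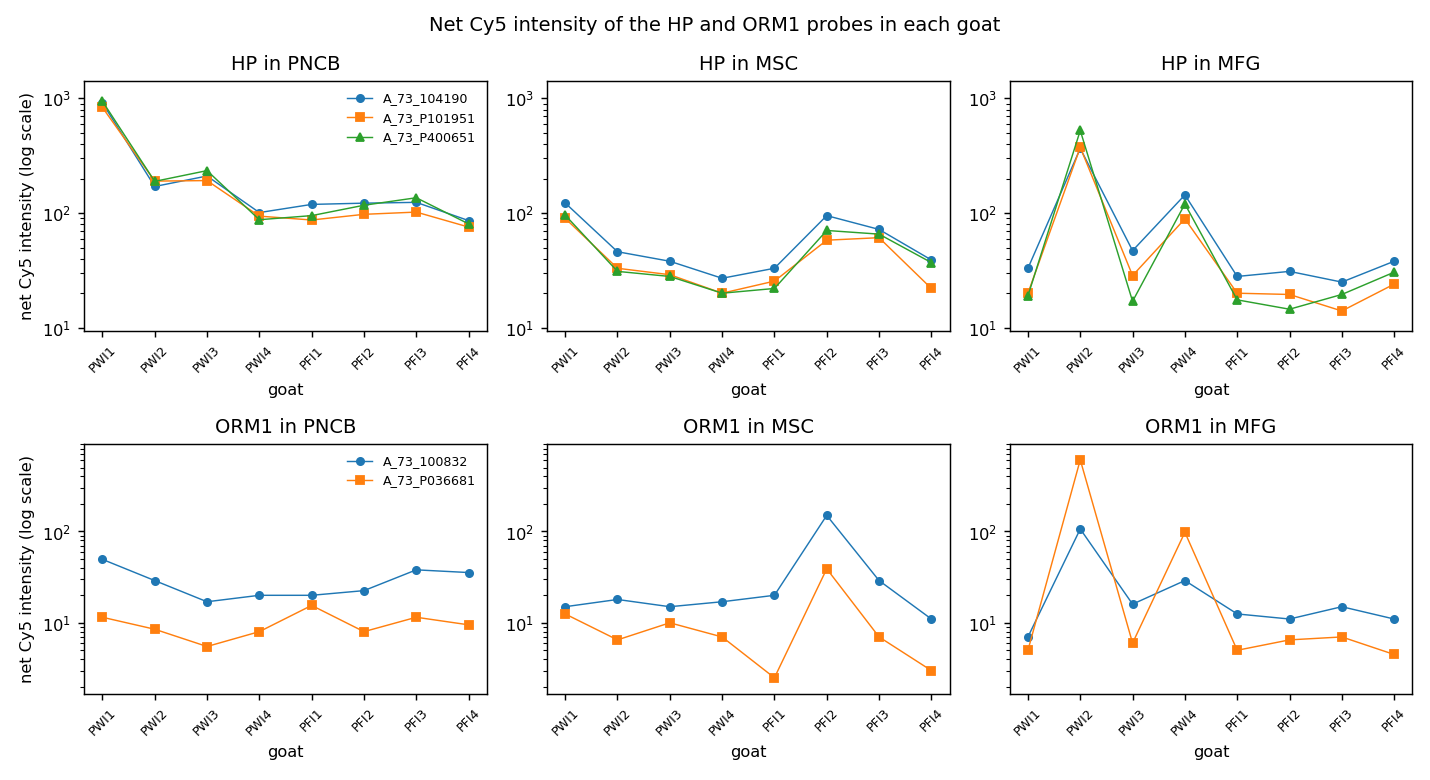
Net Cy5 intensity (log axis) of the 3 HP probes (top) and 2 ORM1 probes (bottom) in each goat, in PNCB, MSC and MFG; lines join the goats of one probe only to make it readable. PWI goat 1 is highest in blood for HP (835 to 945), PFI goat 2 is highest in MSC for ORM1 (150 and 39.0), and PWI goats 2 and 4 are highest in MFG, where their arrays were bright throughout.

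PWI goat 1 had log2 ratios of 0.14, 0.10 and -0.11 in blood, and the other tested PNCB values of the 3 probes lay between -2.23 and -0.96. In its MSC sample the 3 ratios were -1.33, -1.43 and -1.52, inside the range of the other goats, while its net Cy5 of 123, 90.0 and 96.0 was the highest of the 8 goats for each probe.

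ORM1 was dim in every source. Net Cy5 of A_73_100832 was 17.0 to 49.5 in PNCB with a median of 25.8, 11 to 150 in MSC with a median of 17.5, and 7.0 to 106.5 in MFG with a median of 13.8 (n = 8 each). It was well above background on 8 PNCB, 2 MSC and 0 MFG arrays, so it entered the test through blood alone. The ranges of all 3 sources overlapped. PFI goat 2 stood apart in MSC with a net Cy5 of 150, against 11 to 29.0 in the other 7 goats, and the second probe, A_73_P036681, read 39.0 in that sample against 2.5 to 12.5. ORM1 passed in no comparison of sources, with log2 differences of 0.05 in MSC against PNCB, -0.18 in MFG against PNCB and -0.22 in MFG against MSC (limma adjusted p = 0.794, 0.261 and 0.197). Probe A_73_P036681 was too dim to be tested and was well above background on 0 PNCB, 1 MSC and 2 MFG arrays.

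Counted over all probes of the 4 genes, 7 of 12 tested probes were called in MSC against PNCB, all higher in MSC. Of all probes 49.6% were called in that comparison, 6161 higher and 7424 lower. In MFG against PNCB 8 of 11 were called, 7 higher and 1 lower, beside 63.9% of all probes (6987 higher and 10506 lower). In MFG against MSC 4 of 11 were called, all higher in MFG, beside 34.8% of all probes (3458 higher and 6076 lower). The share called in either direction was close to that of all probes in each comparison. The comparisons of MSC and of MFG with PNCB share the same 8 blood arrays, so the 2 sets of values are not independent of each other. The probes called higher in milk than in blood were all of SAA3 and LBP, and 0 probes of HP or ORM1 were. Among them, LBP probes A_73_P110026, A_73_P255221 and A_73_P404941 entered the test only through their milk signal, which favours that direction.

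**Figure D4:**
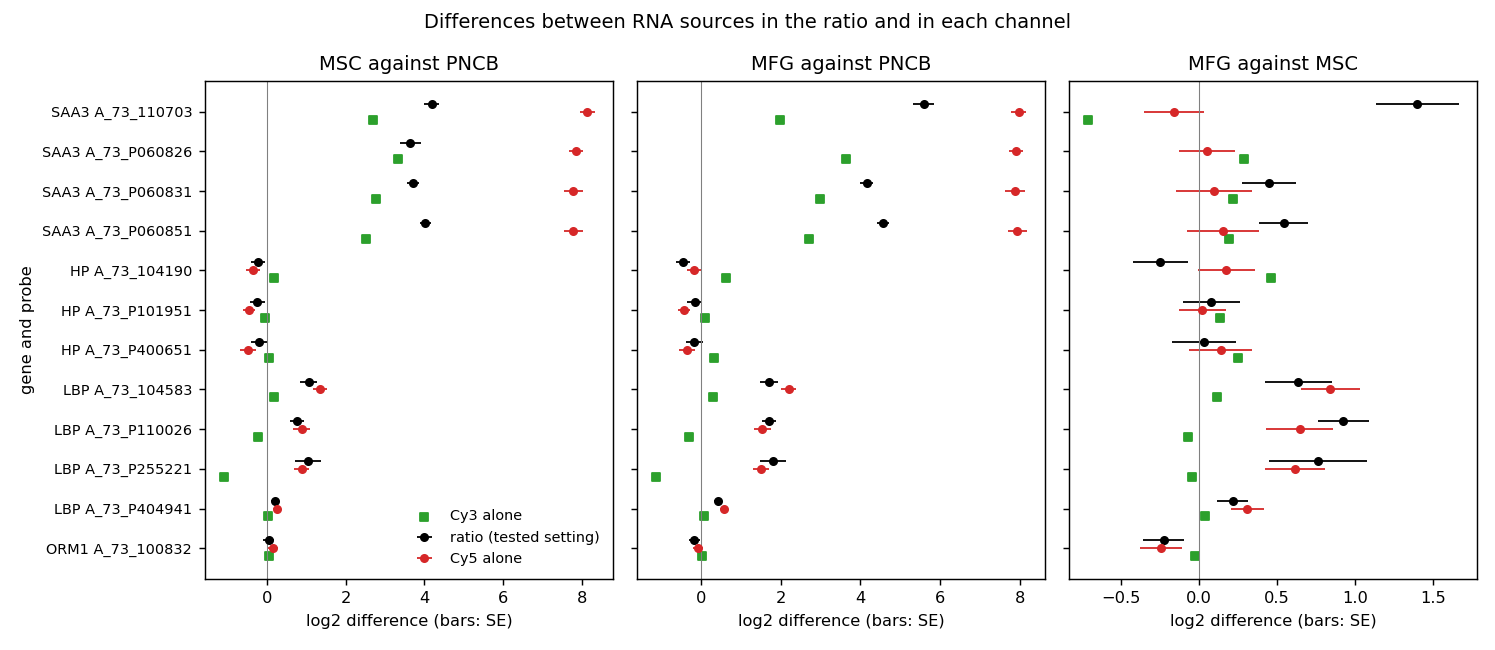
Log2 differences between sources for the 12 tested probes, as the normalised ratio used in the tests (black), Cy5 alone (red) and Cy3 alone (green), the single channels with background-flagged spots kept; bars are standard errors. For SAA3 against blood the Cy5 differences lie at 7.79 to 8.14 and the ratio differences at 3.64 to 5.59, and the x axis of the right panel covers a narrower range.

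The breeds were compared next. In MSC 0 of 12 probes were called (limma, 0 at an unadjusted p below 0.05), beside 0% of all probes, with PWI minus PFI differences of -0.30 to 0.24. In PNCB 0 of 12 were called (limma, 2 at an unadjusted p below 0.05), beside 0.0109% of all probes. The 3 HP probes read higher in PWI blood by 0.77, 0.90 and 0.68 (SE 0.31, 0.36 and 0.32, limma adjusted p = 0.972 each), and by 0.44, 0.40 and 0.33 without PWI goat 1 (limma adjusted p = 0.897 each). In MFG 0 of 11 were called (limma, 1 at an unadjusted p below 0.05), beside 0.0146% of all probes, with differences of -0.36 to 0.51. The largest was that of SAA3 probe A_73_P060851 (SE 0.16, limma adjusted p = 0.543), which had 2 PWI and 4 PFI values. SAA3 probe A_73_110703 had 3 PWI values and 1 PFI value in MFG. Over all sources, with 1 mean per goat, 0 of 11 were called (limma, 1 at an unadjusted p below 0.05), beside 0.00366% of all probes. For the interaction of breed and source 0 of 11 were called (limma, 1 at an unadjusted p below 0.05), beside 0.0146% of all probes.

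These tests do not show that the breeds are alike. On the scale of the normalised ratio, differences over 2-fold, up or down, were outside the 95% interval for 12 of 12 probes in MSC, 8 of 12 in PNCB, 7 of 11 in MFG and 11 of 11 over all sources. The widest interval reached from -0.67 to 2.05 for LBP probe A_73_P255221 in PNCB, the probe with the aberrant Cy3 readings. These intervals cannot exclude a 2-fold difference in RNA. The offset of the background correction shrinks ratios of dim probes, such as LBP probe A_73_P404941 (net Cy5 of 15.5 to 29.5 in MSC). For SAA3 the ratio gave smaller source differences than Cy5 did. Its probe A_73_P060826 had 1 PWI value and 2 PFI values in MSC.

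Relations between the genes over goats were computed within each milk source, on the log2 ratio of the brightest probe. Of 9 relations over 8 goats, 0 had a Benjamini-Hochberg adjusted permutation p below 0.05. HP and ORM1 in MSC gave the lowest exact p (Pearson r = 0.62, permutation p = 0.0347, adjusted 0.312; Spearman rho = 0.45, permutation p = 0.267, adjusted 0.501), and r was 0.83 without the 2 goats farthest from the median of HP. HP in MSC against HP in MFG gave r = 0.35 (exact permutation p = 0.412, adjusted 0.530), and LBP in MSC against LBP in MFG r = -0.50 (exact permutation p = 0.208, adjusted 0.455). SAA3 had too few unflagged goats for this. With background-flagged spots kept, SAA3 in MSC against SAA3 in MFG gave r = -0.27 (exact permutation p = 0.533, adjusted 0.947 over 16 relations). With the same spots kept, HP and LBP in MSC gave r = -0.91 (exact permutation p = 0.00446, adjusted 0.0714; rho = -0.81, permutation p = 0.0218, adjusted 0.223), which became -0.45 without the 2 farthest goats and so rests on them. Breeds lay on different slides and 4 goats are too few for a value within each. With the breed means removed, r was 0.64 for HP and ORM1 in MSC, 0.51 for HP in MSC against MFG and -0.44 for LBP in MSC against MFG. With background-flagged spots kept as well, it was -0.18 for SAA3 in MSC against MFG and -0.91 for HP and LBP in MSC.

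The transcripts whose ratios ran most like those of the brightest probes were found among 7085 candidates. For LBP they were NM_174556 and NM_001034246 (Pearson r = 0.94 each over 24 arrays). For HP, NM_001075595 reached r = 0.69 and for ORM1, DV930070 reached 0.78 over 23 arrays. For SAA3 with background-flagged spots kept, NM_001242573 reached r = 0.99 and TC483248 0.98 over 24 arrays. These arrays share goats, slides, sources and the reference, so the correlations are descriptions. No gene symbol was paired with these transcripts here.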

How the data were processed

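Single-scan two-colour arrays of the 24 samples were used. Per the file headers, deposited intensity of each spot and of its local background was read in both channels by Agilent Feature Extraction 10.7.3.1, with no normalization, beside outlier and detection flags of 0 or 1. A table deposited by the authors gives a log10 ratio per spot, red over green, and matched the scanner's log ratio exactly, with a largest difference of 0.

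Outlier-flagged spots (3.59%) were dropped, normexp with an offset of 50 corrected the background, and loess normalized the ratios of each array with control spots at weight 0, in R 4.3.3 with limma 3.58.1. Spots of one probe were averaged. The scanner marked 0 spots as saturated. Tests were run on probes whose Cy5 was well above background, by the scanner's flag, on all 4 arrays of at least 1 group, which left 27411 of 43653 probes and 12 of the 14 described. Sources were compared in one limma fit of 24 arrays with 6 group means, each contrast weighting both breeds equally. Breeds were compared on 8 arrays per source, on 1 mean per goat over sources, and as an interaction. Adjusted p-values are Benjamini-Hochberg values over all tested probes, with a threshold of 0.05. Other probes of a gene were kept separate, and the brightest tested probe stands for a gene in statements of 1 value. All 14 probes are described, so no probe of these genes was picked by its change. The genes, lists and tests were chosen with earlier results of these data known. No gene symbols could be paired with transcripts, so the pathway and cell type lists were not run. On data simulated for MSC against PNCB over 27411 probes, with 200 changed by 1 on the log2 scale, 90.5% were called and 13 unchanged probes were too. With 8 goats, the number of arrays limits the precision. The goat number is the same animal in each source per the labels, and same-goat deviations from the group means correlated between -0.27 and 0.32.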

Additional observations from a re-analysis of the deposited data

Results flagged for a closer look

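Of 65 groups of 4 arrays examined, 6 held an array far from the other 3 by Dixon's criterion, where chance alone gives about 3.2. In PNCB of PFI goat 4, the log2 ratio of SAA3 was 0.15 for probe A_73_P060831 (0.74 to 0.76 in the other 3 goats) and 0.14 for A_73_P060851 (0.61 to 0.71). The PFI means in PNCB were 0.60 ± 0.30 and 0.53 ± 0.26 for these 2 probes (SD, n = 4 each). With background-flagged spots kept they were 0.43 ± 0.36 and 0.38 ± 0.32, and the criterion was not applied to those values. HP probe A_73_P400651 stood at -0.11 in PNCB of PWI goat 1, against -1.59 to -1.48. LBP probe A_73_104583 reached 2.71 in MFG of PFI goat 2, against 1.83 to 1.92. LBP probe A_73_P255221 stood at -2.55 in PNCB of PFI goat 2, against -0.11 to 0.36, with a Cy3 intensity of 273 on that array. ORM1 probe A_73_100832 reached 1.24 in MSC of PFI goat 2, against 0.06 to 0.26, and net Cy5 of the second ORM1 probe was highest in that sample too.

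By the normalised ratio, HP probe A_73_P101951 had opposite signs in the breeds, lower in MSC than in PNCB in each PWI goat with both values and higher in each PFI goat, with a mean of -0.14 over goats. Net Cy5 of this probe was lower in MSC in 8 of 8 goats, as was Cy5 alone. The interaction of breed and source for this probe had an unadjusted p of 0.0265 and a limma adjusted p of 0.772, so the difference between breeds did not pass.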

How the results depend on the processing

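SAA3 and LBP kept their direction against PNCB in every alternative that gave a value, and each SAA3 difference stayed past the threshold. The number of probes called in MSC against PNCB was 11 in each of 3 alternatives (the scanner's processed signals, the deposited table and median centring), against 7. In MFG against PNCB it was 5 with only probes well above background on all 24 arrays, where fewer were tested. In MFG against MSC the 4 became 7 with no background correction and 7 with array weights, all higher in MFG, 7 with median centring, of which 2 were higher and 5 lower, 2 with the deposited table, 2 with a normexp offset of 10 and 2 within PWI. The offset, the low spike-in slope setting and both settings that keep background-flagged spots were added after the data were seen.

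Calls over all probes split with the scaling. In MFG against PNCB 6987 were higher and 10506 lower, against 4264 and 17778 with median centring. In MFG against MSC 3458 were higher and 6076 lower, against 856 and 17353 with median centring, 2398 and 8196 with the scanner's processed signals, 2398 and 8213 with the deposited table, 6587 and 7443 with Cy5 alone, and 2384 and 6756 with the offset of 10.

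Directions turned as follows, in log2 differences. In MSC against PNCB, HP turned to 0.18, 0.30 and 0.26 within PFI, and ORM1 to -0.0015 with the offset of 10, -0.01 with array weights and -0.21 within PWI. In MFG against PNCB, HP probe A_73_P101951 turned to 0.11 with all flagged spots kept, 0.10 with background-flagged spots kept and 0.17 within PFI. HP probe A_73_P400651 turned to 0.0018 with flagged spots left out after the background fit, and ORM1 to 0.04 with median centring. In MFG against MSC, SAA3 probe A_73_110703 turned to -0.16 with Cy5 alone and background-flagged spots kept, and median centring gave -0.66 and -0.61 for the other 2 SAA3 probes. HP probe A_73_104190 turned to 0.0047 with the scanner's processed signals and the deposited table, and to 0.21 and 0.18 with Cy5 alone without and with background-flagged spots. HP probe A_73_P101951 turned to -0.01 without background correction, -0.73 with median centring and -0.13 within PFI. HP probe A_73_P400651 turned to -0.06 without background correction, -0.84 with median centring, -0.05 with the processed signals and the deposited table, -0.09 with array weights, -0.29 within PFI, -0.20 without the arrays that stand apart and -0.07 without those of low spike-in slope. LBP probe A_73_104583 turned to -0.16 with median centring and -0.13 with the processed signals and the deposited table. The cause was not tested.

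Leaving out 1 goat moved ORM1 in MSC against PNCB between -0.13 (without PFI goat 2) and 0.14. In MFG against PNCB it moved HP probe A_73_P101951 between -0.37 and 0.12 and A_73_P400651 between -0.33 and 0.07, with the highest value without PWI goat 1. HP probe A_73_P400651 in MFG against MSC ranged from -0.10 to 0.16. With the goat as a replicate block, the count of called probes was 7 in MSC against PNCB, 9 in MFG against PNCB and 4 in MFG against MSC, and no call changed but those of both SAA3 probes given with the goat block in the report. SAA3 probe A_73_P060826, whose MFG differences could not be estimated before, differed by 3.14 from PNCB with this block. That difference rests on 1 MFG value, of PWI goat 4, and the count of 9 includes this probe. The MFG array of that goat stands apart, and its PNCB array had a low spike-in slope. The breed comparisons called 0 of these probes under every alternative run. ORM1 probe A_73_100832 was well above background on 0 MFG and 2 MSC arrays, which limits what its differences can show.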
